A study of Mus musculus with 8 samples.

Results

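Endothelial cells line the blood vessels of the testis, which run in the tissue between the seminiferous tubules. A set of 8 genes known in endothelial cells was read from RNA-seq of whole mouse testis: Pecam1, Cdh5, Kdr, Flt1, Tek, Tie1, Eng and Vwf. They were chosen by symbol alone, and all 8 of 8 are among the 23983 genes of the deposited table. The testes came from C57BL/6J mice aged 12, 16 or 24 days (d12, d16, d24) or adult, with no transgene, deletion or treatment named for any group, and 1 RNA library represents each stage. How many animals were pooled for a library is not given in the sources used here. A piece of whole testis was used, so every value is a mixture of vessel, other somatic and germ cells. Each value is in FPKM, fragments scaled to transcript length and to a library size set by Cuffdiff. No spread between animals can be given, no test between stages was possible, and the ranges in parentheses are exact 95% intervals for counting error alone. ChIP-seq of the histone mark H3K27Ac, which belongs to the series too, is not analysed here.

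As background, the 8 genes cover the main parts of endothelial identity. PECAM1 (CD31) and CDH5 (VE-cadherin) hold neighbouring endothelial cells together, KDR (VEGFR2) and FLT1 (VEGFR1) are receptors of the growth factor VEGF, TEK (TIE2) is the receptor of the angiopoietins with TIE1 as its related partner, ENG (endoglin) is a co-receptor of the BMP and TGF-beta family, and VWF is a clotting protein stored in endothelial cells and platelets. KDR carries most of the signal by which VEGF makes vessels grow, while FLT1 binds VEGF tightly with a weaker signal of its own and can act as a decoy. In the testis, the first wave of spermatogenesis fills the tubules with meiotic and then haploid germ cells over these ages.

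The medians of the pachytene and round spermatid markers followed the labelled ages. The median of 6 pachytene spermatocyte markers was 4.07 FPKM at d12 and 215.0 at d16. That of 6 round spermatid markers was 0.660 FPKM at d16 and 93.2 at d24. A list of 6 elongating spermatid markers fell first, from a d12 median of 2.28 FPKM to 0.354 at d16, before 489 in the d24 library. In that first step, 4 of these 6 were at least 2-fold lower and 0 higher. Their d12 values rest on few fragments, such as 12 for Tnp2 and 17 for Prm1, against 1 and 6 at d16. The source of these d12 fragments was not tested. The FPKM columns sum to between 283580 at d12 and 659202 in the adult library. A range of 9325672 (d12) to 24975336 (d24) fragments lay on genes, as read from the smallest steps of the values. Beside the 8 genes, the endothelial markers Emcn (0.717 to 2.30 FPKM over the 4 libraries), Cldn5 (1.61 to 2.82 FPKM) and Esam (0.614 to 1.81 FPKM) were present at every stage. Gpihbp1 was listed at 0 in adult testis, and Plvap rested on 5 fragments both at d12 and in adult testis. Fewer endothelial cells in the tissue and less RNA per endothelial cell cannot be told apart in whole testis.

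The genes lie on autosomes (GRCm38, RefSeq): Pecam1 on chromosome 11 (106654213 to 106715281), Cdh5 on 8 (104101613 to 104144504), Kdr and Flt1 on 5 (75932827 to 75979072 and 147561604 to 147726438), Tek and Tie1 on 4 (94739086 to 94874976 and 118471191 to 118489849), Eng on 2 (32646595 to 32682669) and Vwf on 6 (125552948 to 125686679). Promoters, from 250 bases before to 50 bases after the annotated start, were found in the RefSeq table of GRCm38.p6 for 5 of the 8 genes, namely Kdr, Flt1, Tek, Tie1 and Eng. Endothelial genes are known as targets of ETS factors, which bind a core of GGAA. The core was counted on both strands. Of 32851 promoters of this length in the table, 96.0% hold it, with a median of 3 copies. Tek had 2 copies, Flt1 and Eng 4 each, Kdr 5 and Tie1 9, and 1.59% of all promoters hold as many as Tie1. The promoters of both VEGF receptors, whose levels ran apart after d12, and of Tie1, which holds the most cores, are given 5′ to 3′ on the strand of the gene, with GGAA or its reverse complement TTCC in capitals. The Kdr promoter is at chr5:75978406-75978705 (minus strand), that of Flt1 at chr5:147725962-147726261 (minus strand) and that of Tie1 at chr4:118489800-118490099 (minus strand). The starts used for Kdr and Flt1 lie inside the outer bounds of the annotated genes. A match of these letters is a description and not a bound site.
Kdr: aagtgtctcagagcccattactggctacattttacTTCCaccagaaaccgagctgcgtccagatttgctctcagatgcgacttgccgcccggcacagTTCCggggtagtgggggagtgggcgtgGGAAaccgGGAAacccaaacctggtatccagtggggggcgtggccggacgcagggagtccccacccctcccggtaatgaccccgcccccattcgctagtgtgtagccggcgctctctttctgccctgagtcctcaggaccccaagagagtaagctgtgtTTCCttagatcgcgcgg
Flt1: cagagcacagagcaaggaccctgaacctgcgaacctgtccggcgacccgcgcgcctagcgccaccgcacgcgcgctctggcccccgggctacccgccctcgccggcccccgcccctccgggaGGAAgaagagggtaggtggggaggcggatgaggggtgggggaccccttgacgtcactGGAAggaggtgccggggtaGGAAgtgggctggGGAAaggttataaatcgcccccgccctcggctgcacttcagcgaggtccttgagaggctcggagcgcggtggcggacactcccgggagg
Tie1: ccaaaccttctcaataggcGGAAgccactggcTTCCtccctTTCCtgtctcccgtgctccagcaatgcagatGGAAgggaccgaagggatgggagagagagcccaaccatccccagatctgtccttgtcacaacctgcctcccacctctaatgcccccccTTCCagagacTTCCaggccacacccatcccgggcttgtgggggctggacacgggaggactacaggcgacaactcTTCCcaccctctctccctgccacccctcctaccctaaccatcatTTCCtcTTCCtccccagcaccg

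Of the 8 genes, 4 were at least 2-fold lower in adult testis than at d12 (Cdh5, Kdr, Pecam1 and Eng), 1 was at least 2-fold higher (Vwf), and Flt1, Tek and Tie1 lay between. The sum over the 8 genes was 24.02 FPKM at d12, 16.5 at d16, then 9.56 at d24 and 11.4 in the adult library, so the lowest sum of the deposited values was at d24. Among all genes whose mean was 1 FPKM or more over the 4 libraries, 23.6% were at least 2-fold lower and 35.9% at least 2-fold higher in adult testis than at d12. Among genes with a mean of 0.5 to 5 FPKM, a range that holds all 8, these shares were 36.4% and 28.3%, so 4 of 8 lower is not far from the share at this level of expression. The median log2 change of the 8 genes from d12 to adult testis was -0.90, beside 0.20 over all genes whose mean was 1 FPKM or more and -0.39 over those with a mean of 0.5 to 5 FPKM. Of the 8 genes, 5 had a mean of at least 1 FPKM.

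These numbers depend on how the libraries are put on 1 scale. With FPKM sums made equal across libraries, 7 of the 8 genes were at least 2-fold lower in adult testis and 0 were higher. Of all genes whose mean was 1 FPKM or more, 50.2% were lower and 23.2% higher on that scale. With each library divided by the median of 6 Sertoli cell markers, the somatic cells inside the tubules, only Cdh5 was at least 2-fold lower, 1 gene was at least 2-fold higher, and the median log2 change of the 8 was -8.88e-05. Of all genes whose mean was 1 FPKM or more, 6.94% were lower and 54.3% higher after this division.

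**Figure D1:**
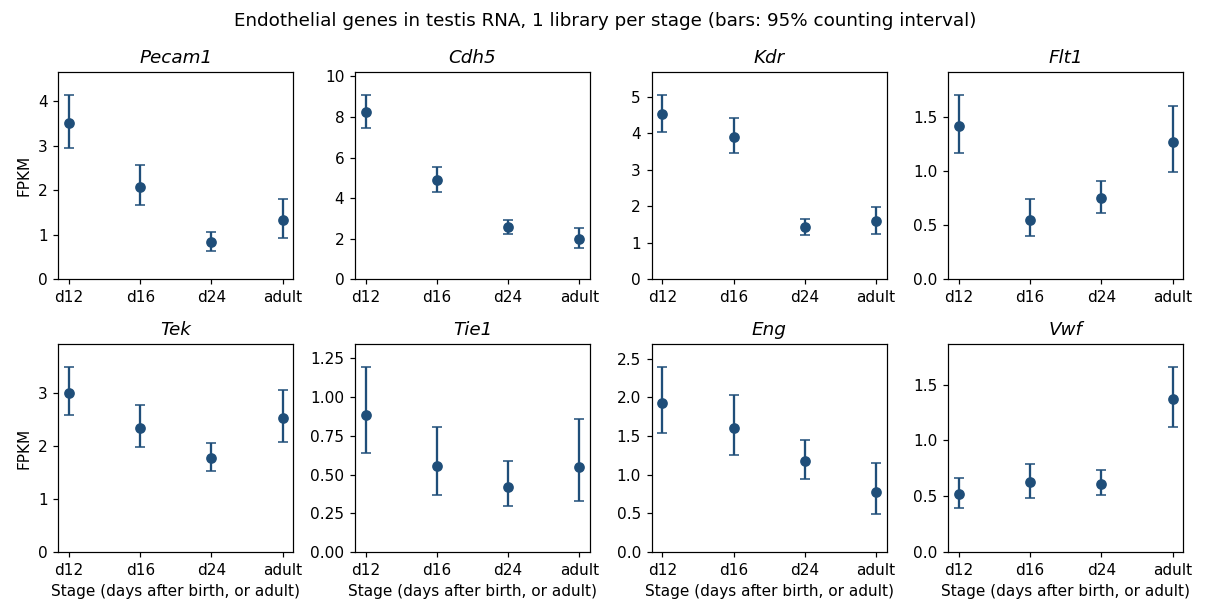
FPKM of the 8 endothelial genes (vertical axes, each from 0) at d12, d16, d24 and in adult testis (horizontal axes). Points are the single library of each stage and bars are 95% counting intervals. Cdh5 goes from 8.25 to 2.00 FPKM, whereas Vwf is highest in adult testis at 1.37 FPKM.

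Cdh5, the adhesion molecule of endothelial junctions and the most abundant of the 8 at d12, had 8.25 FPKM at d12 (412 fragments, interval 7.48 to 9.09), 4.88 at d16 (243 fragments, interval 4.28 to 5.53), then 2.57 at d24 (225 fragments, interval 2.24 to 2.93) and 2.00 in the adult library (71 fragments, interval 1.56 to 2.52). The order of stages was thus the order of age, and the last step, with d24 1.29 times the adult level (0.981 to 1.70), is within counting error. The adult value was 4.13-fold lower than the d12 value (3.21 to 5.39). Among the genes detected in each library, Cdh5 moved from the 65.1st percentile at d12 to the 36.8th in adult testis. Pecam1, which joins endothelial cells and is also found on platelets and leukocytes, had 3.50 FPKM at d12 (142 fragments), 2.07 at d16 (84 fragments), then 0.836 at d24 (59 fragments) and 1.33 in the adult library (38 fragments). The lowest Pecam1 value was at d24, and the adult value was 1.59 times as high (1.03 to 2.43). Against d12, the adult value of Pecam1 was 2.63-fold lower (1.85 to 3.91). The Cdh5 to Pecam1 ratio within a library was 2.36 (1.94 to 2.87) at d12, 2.36 (1.82 to 3.04) at d16, 3.07 (2.31 to 4.19) at d24 and 1.502 (1.01 to 2.31) in the adult library. The intervals of this ratio overlap between all stages except d24 and adult testis, which narrowly lie apart (2.312 against 2.309).

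Both VEGF receptors had their highest value at d12, and they ran apart after it. Kdr had 4.51 FPKM at d12 (308 fragments, interval 4.02 to 5.04), 3.90 at d16 (266 fragments, interval 3.45 to 4.40), then 1.43 at d24 (171 fragments, interval 1.22 to 1.66) and 1.58 in the adult library (77 fragments, interval 1.25 to 1.98). The values formed a high pair, d12 and d16, and a low pair, d24 and adult, and neighbours within each pair did not differ beyond counting error. From d16 to d24, Kdr was 2.73-fold lower (2.25 to 3.33). Flt1 had 1.41 FPKM at d12 (111 fragments, interval 1.16 to 1.70), 0.548 at d16 (43 fragments, interval 0.396 to 0.738), then 0.747 at d24 (103 fragments, interval 0.609 to 0.905) and 1.27 in the adult library (71 fragments, interval 0.990 to 1.60). Its lowest value was thus at d16, where it was 2.58-fold lower than at d12 (1.80 to 3.75), while the adult value was 1.11-fold lower than that at d12, with an interval on both sides of 1 (0.819 to 1.52).

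The ratio of Flt1 to Kdr compares genes of 1 library, so the scaling between libraries drops out. It was 0.313 (0.249 to 0.390) at d12, 0.140 (0.0992 to 0.194) at d16, 0.523 (0.405 to 0.672) at d24 and 0.800 (0.571 to 1.12) in the adult library. The intervals of d12, d16 and d24 do not overlap, and those of d24 and adult testis do. At the 3 early stages Kdr exceeded Flt1, and in adult testis the levels did not differ beyond counting error. The values are sums over transcripts, so the membrane and the soluble form of FLT1 are not separated.

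**Figure D2:**
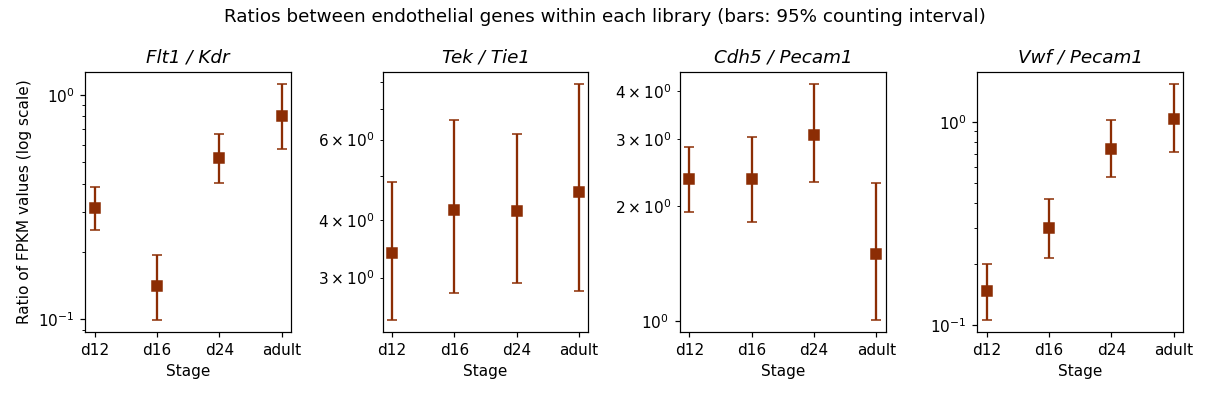
Ratio of 2 FPKM values within the same library (vertical axes, log scale) at each stage (horizontal axes), for Flt1 over Kdr, Tek over Tie1, Cdh5 over Pecam1 and Vwf over Pecam1; bars are 95% counting intervals. Flt1 over Kdr is lowest at d16 (0.140), and Vwf over Pecam1 goes from 0.147 at d12 to 1.03 in adult testis.

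In the deposited values, the angiopoietin receptor Tek, like Flt1, differed little between d12 and adult testis. With equal FPKM sums, the log2 ratio of adult to d12 was -1.47 for Tek and -1.37 for Flt1. Per Sertoli median, these were 0.75 and 0.85. Tek had 3.01 FPKM at d12 (177 fragments, interval 2.58 to 3.48), 2.35 at d16 (138 fragments, interval 1.97 to 2.78), then 1.77 at d24 (183 fragments, interval 1.52 to 2.05) and 2.53 in the adult library (106 fragments, interval 2.07 to 3.06). The low point of the deposited values was d24, and the adult value was 1.43 times as high (1.11 to 1.82). Against d12, the adult value of Tek was 1.19-fold lower, within counting error (0.929 to 1.53). In adult testis Tek was the highest of the 8 genes, with 22.2% of their summed FPKM, a place that Cdh5 held at d12 with 34.4%. The adult intervals of Tek (2.07 to 3.06) and Cdh5 (1.56 to 2.52) overlap. Tie1, which modulates TEK signalling, was low throughout, with 0.885 FPKM at d12 (43 fragments), 0.557 at d16 (27 fragments), then 0.422 at d24 (36 fragments) and 0.549 in the adult library (19 fragments). No neighbouring stages of Tie1 differed beyond counting error, and its d12 value was 1.61 times the adult value (0.919 to 2.93). The Tek to Tie1 ratio was 3.40 (2.42 to 4.86) at d12, 4.22 at d16, then 4.19 at d24 and 4.602 (2.81 to 7.95) in the adult library, and the intervals of all 4 stages overlap.

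Eng had 1.93 FPKM at d12 (84 fragments, interval 1.54 to 2.39), 1.61 at d16 (70 fragments, interval 1.25 to 2.03), then 1.18 at d24 (90 fragments, interval 0.947 to 1.45) and 0.781 in the adult library (24 fragments, interval 0.496 to 1.15). Like Cdh5, it was lower at each later stage, although no single step lay beyond counting error. Over the whole interval the adult value was 2.47-fold lower (1.57 to 4.10). The Eng locus overlaps Fpgs, a gene on the other strand, by 61 bp, and Cdh5 overlaps Gm29682 on the other strand. The libraries were strand-specific.

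Vwf went the other way. It had 0.515 FPKM at d12 (57 fragments, interval 0.390 to 0.668), 0.625 at d16 (69 fragments, interval 0.486 to 0.791), then 0.613 at d24 (119 fragments, interval 0.508 to 0.734) and 1.37 in the adult library (108 fragments, interval 1.12 to 1.66). The 3 early values did not differ beyond counting error, and the adult level exceeded that of d24 by a ratio of 2.24 (1.71 to 2.93) and was 2.66 times the d12 value (1.91 to 3.73). With FPKM sums made equal across libraries, the log2 ratio of adult to d12 was 0.19 for Vwf and between -3.26 and -1.37 for the other 7 genes. Within the libraries, Vwf over Pecam1 was 0.147 (0.106 to 0.201) at d12, 0.302 (0.215 to 0.418) at d16, 0.734 (0.536 to 1.03) at d24 and 1.03 (0.712 to 1.55) in the adult library, and only the intervals of the last pair overlap. Its part in the sum of the 8 genes was 2.15% at d12 and 12.02% in adult testis.

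Platelets carry VWF too, so the platelet genes are given beside it. Among platelet and megakaryocyte markers, Pf4 had 6.79 FPKM at d12 and 3.43 in the adult library, Gp1ba 2.02 and 0.740, and Itga2b 0.465 and 0.228. All of these were lower in adult testis, Gp9 was listed at 0 in the 4 libraries, and Ppbp did not exceed 0.0739 FPKM. Itga2b rested on 20 and 7 fragments, and its intervals overlap (0.284 to 0.718 and 0.0918 to 0.471). Those of Pf4 overlap too (50 and 18 fragments, 5.04 to 8.95 and 2.03 to 5.43). Those of Gp1ba do not (118 and 31 fragments, 1.67 to 2.42 and 0.507 to 1.06). Level intervals can overlap although the ratio of the values lies beyond counting error. The part of platelets in the Vwf values was not tested. Of the red blood cell genes, Hba-a1, a chain of haemoglobin, had 236.2 FPKM at d12, 50.6 at d16, then 52.8 at d24 and 59.4 in the adult library. Hbb-bs, another haemoglobin chain, had 24.02 FPKM at d12 and 0.0258 in the adult library, and both have near-identical copies that could share reads. Alas2, an enzyme of haem synthesis in red cells, was higher in adult testis (3.07 and 5.55 FPKM, a ratio of 1.81, 1.33 to 2.49), and Slc4a1 had 0.140 and 0.296 FPKM from 8 and 12 fragments. The part of blood RNA in the d12 values of the endothelial genes was not tested.

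**Figure D3:**
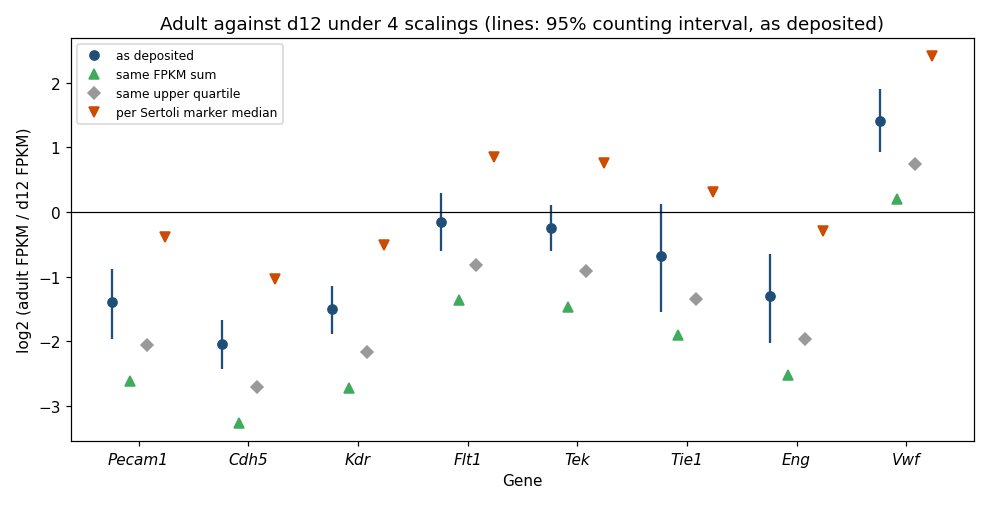
Log2 ratio of adult to d12 FPKM (vertical axis) for the 8 genes (horizontal axis), as deposited (circles, with 95% counting intervals as lines), after rescaling each library to the same FPKM sum or upper quartile, and after division by the median of 6 Sertoli cell markers. Each scaling shifts all 8 genes by the same amount, so their order, with Cdh5 lowest and Vwf highest, cannot change between scalings. Vwf lies between 0.19 and 2.41.

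By steps, few of the 8 genes were past 2-fold. From d12 to d16, Flt1 was at least 2-fold lower, which is 1 of 8 genes, and 0 were at least 2-fold higher, beside 3.78% and 13.3% of all genes whose mean was 1 FPKM or more. At a mean of 0.5 to 5 FPKM, the range that holds all 8, these shares were 11.6% and 9.42%, so 1 of 8 is near the share of genes at this level. The median log2 change of the 8 was -0.46 in this step, and 7 of the 8 had a lower value at d16, with Vwf as the exception. From d16 to d24, Kdr and Pecam1 were at least 2-fold lower, which is 2 of 8, and 0 were higher, beside 9.20% and 27.6%, and beside 17.4% and 22.8% at a mean of 0.5 to 5 FPKM. From d24 to adult testis, 0 were at least 2-fold lower and 1 of 8, Vwf, was higher, beside 2.64% and 11.6%, and beside 8.02% and 14.7% at a mean of 0.5 to 5 FPKM. The median log2 change of the 8 in this last step was 0.40, and only Cdh5 and Eng had a lower value in adult testis than at d24. With equal FPKM sums, that median was -0.03.

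The ligands of these receptors and the rest of the pathways were read from lists chosen for their role. The counts past 2-fold from d12 to adult testis in these lists stand beside the shares over all genes. At a mean of 0.5 to 5 FPKM, 36.4% of genes were lower and 28.3% higher. At a mean of 1 FPKM or more, the shares were 23.6% and 35.9%. Of 8 further genes of the VEGF system, 2 were at least 2-fold lower in adult testis than at d12 and 0 higher. Vegfa, the main ligand of KDR, had 5.40 FPKM at d12, 4.19 at d16, then 2.13 at d24 and 2.04 in the adult library, which is 2.65-fold lower. Nrp1, a co-receptor that presents VEGF to KDR, was 3.13-fold lower (2.67 to 3.72), from 10.6 FPKM to 3.39. Vegfb, a ligand of FLT1 but not of KDR, had 6.73 FPKM at d12 and 5.68 in the adult library, which is within counting error (1.18-fold lower, 0.864 to 1.66). Pgf, another ligand of FLT1 alone, had 1.07 FPKM at d12, 0.505 at d16, then 1.55 at d24 and 1.42 in the adult library. The receptor Flt4, known for lymphatic vessels, had 0.629 FPKM at d12, 0.247 at d16, then 0.242 at d24 and 0.826 in the adult library.

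Of the 3 angiopoietins and the phosphatase Ptprb, 2 of 4 were at least 2-fold lower in adult testis. Angpt1, the activating ligand of TEK, had 0.777 FPKM at d12 (42 fragments), 0.352 at d16 (19 fragments), then 0.380 at d24 (36 fragments) and 0.364 in the adult library (14 fragments). Angpt2, which can block or activate TEK depending on context, had 4.67, 4.47, 1.69 and 2.68 FPKM at the same stages. Angpt2 exceeded Angpt1 in every library, with a ratio of 6.00 (4.29 to 8.57) at d12, 12.7 (7.92 to 21.5) at d16, 4.44 (3.05 to 6.62) at d24 and 7.36 (4.15 to 14.0) in the adult library. The intervals of d16 and d24 do not overlap, while those of d12 and adult testis do. Angpt4 had 1.36 FPKM at d12 (40 fragments) and 0.147 in the adult library (3 fragments).

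The list around endoglin holds 10 genes, of which 8 gave a fold, 5 were at least 2-fold lower and 2 at least 2-fold higher in adult testis than at d12. Acvrl1 (ALK1), the receptor that works with ENG in endothelial cells, had 3.78 FPKM at d12 (172 fragments), 1.68 at d16 (76 fragments), then 1.30 at d24 (104 fragments) and 0.848 in the adult library (27 fragments), which is 4.46-fold lower (3.01 to 7.08). Its partner Bmpr2 was 4.42-fold lower (4.02 to 4.86), from 22.5 FPKM. The BMP target genes Id1 and Id3 went from 4.36 to 1.20 FPKM and from 8.30 to 2.12 FPKM. The higher genes were Smad1 (5.64 to 13.0 FPKM) and the inhibitor Smad6 (0.591 to 2.42 FPKM), and neither is particular to endothelial cells. Of the lower genes, Bmpr2 was above Cdh5 (8.25 FPKM) at d12. The part of other cells in the values of the lower genes was not tested. The ligands Gdf2 (BMP9) and Bmp10 were at 0 fragments in all 4 libraries, apart from 1 fragment of Gdf2 at d24. Of 8 genes of vascular Notch signalling, 4 were at least 2-fold lower, among them the receptor Notch1 (3.62 to 0.650 FPKM) and the endothelial ligand Dll4 (0.602 to 0.260 FPKM, from 26 and 8 fragments). Notch4, a Notch receptor of endothelial cells, was higher, with 0.411 FPKM at d12 (34 fragments) and 0.849 in the adult library (50 fragments), a ratio of 2.07 (1.31 to 3.29).

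Of 12 factors known in endothelial cells, 3 were at least 2-fold lower and 4 at least 2-fold higher in adult testis than at d12. Among the ETS factors, Erg, which is largely restricted to endothelium, had 6.64 FPKM at d12 (265 fragments), 4.16 at d16 (165 fragments), then 1.73 at d24 (121 fragments) and 1.47 in the adult library (42 fragments). The adult value of Erg was 4.52-fold lower (3.24 to 6.38), and that of Ets1 7.54-fold lower (5.38 to 10.9). Fli1 had 1.61 FPKM at d12 and 1.02 in the adult library (1.57-fold lower, 0.999 to 2.53). The higher genes were Gata2, Klf4, Sox7 and Klf2. Gata2 had 0.172 FPKM at d12 and 11.2 in the adult library, and Klf4, which is known in round spermatids, had 4.72 and 81.3 FPKM. Sox7 had 0.244 FPKM at d12, 0.147 at d16, then 1.44 at d24 and 1.03 in the adult library. In 3 of these, Gata2, Klf4 and Sox7, the step from the low to the high level lies between d16 and d24, the step in which the 6 round spermatid markers were all at least 2-fold higher. The part of germ cells in the values of these factors was not tested.

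Of 22 other genes known in endothelial cells, 10 were at least 2-fold lower in adult testis than at d12 and 0 were at least 2-fold higher. Among all genes with a mean of 0.5 to 5 FPKM, these shares were 36.4% and 28.3%. Cd34, Mcam and Thbd had the highest d12 levels of this list. Cd34 had 35.8 FPKM at d12 and 11.5 in the adult library, Mcam 29.0 and 6.98, and Thbd, the thrombin receptor thrombomodulin, 19.1 and 2.11. These 3 are also known in cells outside the endothelium, and each was above Cdh5 at d12. Of the markers with levels near those of the 8 genes, Cldn5 (2.82 FPKM at d12, 2.38 in adult testis), Esam (1.77 and 1.75) and Rasip1 (1.65 and 1.39) differed between d12 and adult testis by less than counting error. Others at similar levels were lower in adult testis, with Cd93 at 3.10 and 0.912 FPKM (3.40-fold, 2.53 to 4.65), Tspan7 at 3.87 and 1.07 FPKM, Procr at 2.12 and 0.522 FPKM and S1pr1 at 1.87 and 0.703 FPKM. Ecscr had 2.66 FPKM at d12 and 0.202 in the adult library. Egfl7, with 4.59 FPKM at d12, 0.853 at d24 and 1.70 in the adult library, and Emcn, with 2.30, 0.717 and 1.54, had their lowest deposited value at d24, as had Pecam1, Kdr, Tek and Tie1. For Kdr and Tie1, d24 and adult testis did not differ beyond counting error. With equal FPKM sums, the log2 ratio of adult to d24 was -0.33 for Kdr, -0.10 for Tie1, 0.03 for Tek and 0.19 for Pecam1.

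Of 9 markers of arterial, venous and lymphatic endothelium, 5 were at least 2-fold lower and 1 at least 2-fold higher in adult testis. The venous genes Ephb4 and Nr2f2 were 6.22-fold (4.20 to 9.57) and 4.98-fold lower (3.92 to 6.48). Nr2f2 (9.93 FPKM) was above Cdh5 (8.25 FPKM) at d12, and the part of other cells in its values was not tested. The arterial gene Gja4 had 31 fragments at d12 (1.47 FPKM) and 3 in the adult library (0.200 FPKM), while Gja5 had 21 fragments at d12 (0.537 FPKM) and 28 in the adult library (1.01 FPKM), and Efnb2 had 3.75 and 3.66 FPKM. Lyve1, a marker of lymphatic vessels and of some macrophages, had 3.37 FPKM at d12 (110 fragments), 1.99 at d16, then 0.698 at d24 and 0.0860 in the adult library (2 fragments). Prox1, the lymphatic master regulator, had 0.251 FPKM at d12, 0.174 at d16, then 0.803 at d24 and 2.196 in the adult library. Pdpn, known in lymphatic endothelium and in other cells, was the most abundant of the 9 at d12, with 29.0 FPKM (660 fragments), and had 5.29 FPKM in the adult library (86 fragments). Of these 3 genes, Lyve1 and Pdpn were thus lower and Prox1 higher in adult testis. Over the 73 genes of these 7 vascular lists, 71 of which gave a fold, 31 were at least 2-fold lower and 8 at least 2-fold higher in adult testis than at d12, with a median log2 change of -0.73. Beside these counts, 36.4% of all genes with a mean of 0.5 to 5 FPKM were lower and 28.3% higher. At a mean of 1 FPKM or more, the shares were 23.6% and 35.9%.

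**Figure D4:**
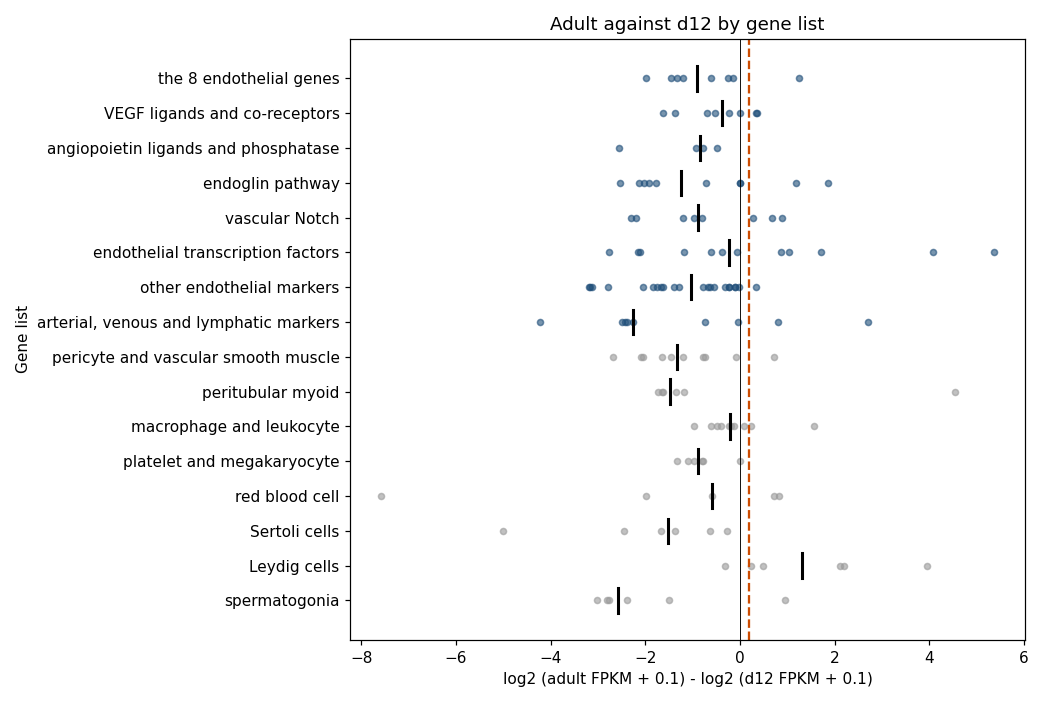
Change from d12 to adult testis, as log2(FPKM + 0.1) (horizontal axis), for each gene (points) of the vascular lists (blue) and of other somatic, blood and early germ cell lists (grey), with the median of each list (black bars) and that of all genes whose mean was 1 FPKM or more (dashed line, 0.20). The median of the 8 endothelial genes is -0.90, between those of the Sertoli (-1.52) and macrophage (-0.20) lists, and the Leydig cell median is 1.30.

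The cells around the vessels and tubules give a scale inside each library. The median of the 8 endothelial genes was 2.47 FPKM at d12, 1.84 at d16, then 1.01 at d24 and 1.35 in the adult library. Over the median of 6 Sertoli cell markers this is 0.152, 0.131, 0.103 and 0.167. Over 10 genes listed for pericytes and vascular smooth muscle, the cells that wrap vessels, it is 1.83, 2.19, 1.43 and 2.00. This pericyte list also holds Pdgfb, a ligand known from endothelial cells. The adult median of the list (0.675 FPKM) lay between Pdgfrb (0.663 FPKM) and Pdgfb (0.686 FPKM). Adult over d12, these ratios are 1.096 for the Sertoli list and 1.09 for the pericyte list, and both are lowest at d24. With means of the lists in place of medians, the Sertoli value is 0.765, on the other side of 1, and the pericyte value 1.21. Against 10 macrophage and leukocyte markers, the ratio was 1.07 at d12, 0.505 at d24 and 0.736 in the adult library. Against 6 Leydig cell markers, the hormone-making cells beside the vessels, it was 0.136 at d12, 0.139 at d16, then 0.0451 at d24 and 0.0249 in the adult library, which is 5.44-fold lower. Of 6 peritubular myoid genes, 5 were at least 2-fold lower and 1, Actg2, higher in adult testis than at d12. Beside this and the next counts, 23.6% of all genes whose mean was 1 FPKM or more were lower and 35.9% higher. Of the 6 Leydig cell genes, 3 were at least 2-fold higher in adult testis than at d12, among them Insl3 with 17.5 FPKM at d12 and 272.8 in the adult library. Of the 10 macrophage and leukocyte genes, which could share Pecam1 and Eng, 1 was at least 2-fold lower and 1 higher in adult testis than at d12. The part of leukocytes in the endothelial values was not tested. The summed level of these 10 genes was 34.7 FPKM at d12, 35.6 at d16, then 32.3 at d24 and 31.0 in the adult library.

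Genes outside the lists whose profile over the 4 stages lay nearest to the mean of the 8 were found by the Euclidean distance between centred log2(FPKM + 0.1) values. Of 13790 genes compared, the nearest were Pja1, Dpyd, Rps6ka6, Flot2, Wdr90, Sbk1, Mblac2, Pak3, Wdr13 and 4831440E17Rik, at distances of 0.0405 to 0.0708. Pja1, the nearest, had 83.2 FPKM at d12, 61.0 at d16, then 40.8 at d24 and 51.9 in the adult library. Among the 8, Tie1 lay nearest to their mean (0.175), with 76 other genes closer, and Vwf farthest (1.44), with 7991 genes closer. A profile of 4 points is shared by many genes, and with a pseudocount of 1 FPKM only 2 of the 10 nearest genes stayed among the nearest 10.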

How the data were processed

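RNA was measured by strand-specific RNA-seq of whole testis, 1 library per stage (d12, d16, d24, adult). According to the methods, the authors mapped reads with TopHat2 (2.1.0) and Bowtie (1.1.2) on RefSeq annotation and computed FPKM with Cuffdiff of Cufflinks (2.2.1). The authors deposited 1 table of FPKM values, with no counts. How Cuffdiff scaled the libraries to each other is not given in the sources used here. As read from the steps of the values, 1 fragment at 1 kb was 0.112 FPKM in the adult library, with 12736533 fragments on genes. At d24 it was 0.0455 FPKM, with 24975336 fragments on genes. At d12 and d16 it was 0.0799 and 0.0800 FPKM, with 9325672 and 9918130 fragments on genes. Scaling to the fragments on genes alone would give smaller values for adult testis and d24 and larger values for d12 and d16. The 4 ChIP samples are not analysed here.

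The value of 1 fragment was recovered from the steps of low values of genes with 1 curated transcript, where 91.1% to 92.2% of the values of at most 20 fragments lay within 0.05 of a whole number. FPKM times transcript length then gave fragments, which are approximate for Pecam1 and Eng (mean of their curated lengths) and rest on the length that made all 4 values whole for Kdr, Flt1 and Tek. Intervals are exact Poisson (levels) or Clopper-Pearson (ratios) at 95%, for counting error only. At 1 kb, a floor of 3 fragments is 0.137 to 0.336 FPKM. A gene was past the fold at a 2-fold FPKM ratio, with 0 set to that floor, and log2 changes used a pseudocount of 0.1 FPKM. Values were compared with genes of a mean of at least 1 FPKM. With 1 library per stage there is no test.

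The named genes are the 8 endothelial genes, examples from 19 lists by role or cell type, and the 10 genes of most similar profile. The genes and lists were chosen with earlier results of these data known. Of 155 listed symbols, 154 were found, 3 of them by synonym. The values of 1 listed gene are not reported here. Near-identical copies of the 8 genes (95% identity over 80% of the length, blastn 2.17.0) were not found. Alternatives were scaling, pseudocount, fold, filter and list summary. The steps were tested on simulated data. Python 3.11.15, numpy 2.4.6, pandas 2.3.3, scipy 1.17.1 and matplotlib 3.10.9 were used.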

Additional observations from a re-analysis of the deposited data

How the results depend on the processing

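No paired analysis was possible because each stage has 1 library and no replicate numbers. Scaling and the fold threshold both moved the counts. From d12 to adult testis, the 4 genes at least 2-fold lower became 7 with the same FPKM sum, 1 per Sertoli median and 1 at 3-fold, and the 1 higher became 0 with the same sum, the same upper quartile and at 3-fold. Their median log2 change (-0.90) became -2.11 (sum), -1.46 (upper quartile) and -8.88e-05 (Sertoli). From d12 to d16, 4 genes were lower at 1.5-fold and 0 at 3-fold. From d16 to d24, 6 were lower with the same sum and 0 per Sertoli median or at 3-fold, and the median was -1.02 (sum) and 0.0898 (Sertoli). Per Sertoli median, the log2 ratios of Tek (0.12), Tie1 (0.13), Eng (0.07) and Vwf (0.50) turned from below to above 0 in this step, of which only that of Tek had lain beyond counting error. From d24 to adult testis, 1 was lower with the same sum and at 1.5-fold, the number higher was 0 (sum, upper quartile, 3-fold), 2 (Sertoli) and 3 (1.5-fold), and the median was -0.0291 (sum).

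Of the other vascular genes, 31 lower from d12 to adult testis became 56 (sum), 47 (upper quartile) and 19 (Sertoli), 8 higher became 3, 5 and 16, and 5 at 3-fold, and their median was -1.93, -1.30 and 0.08096. Of all genes, the share lower was 50.2% (sum), 38.4% (upper quartile), 6.94% (Sertoli), 12.7% at 3-fold and 36.4% at a mean of 0.5 to 5 FPKM, a range chosen after seeing the data, and the share higher was 23.2% (sum) and 54.3% (Sertoli). With means in place of medians, adult over d12 relative to Sertoli, Leydig and peritubular cells was 0.765, 0.108 and 0.432. By medians, these values were 1.096, 0.184 and 0.918. The peritubular list holds Actg2, with 9.47 FPKM at d12 and 225 in adult testis, while its other 5 genes were at least 2-fold lower. The cause of these shifts was not tested. In all, 194 alternative values were computed for 55 results, and 85 of them moved past the limit set for that kind of value (for single genes the counting interval, for counts 1.5 times). A further 2 reversed in direction, both per Sertoli median. They were the ratio of Tek from d16 to d24 and the median of the other vascular genes from d12 to adult testis. Of the 96 rescaled log2 ratios of single genes, 12 changed sign, 8 of these per Sertoli median. The depth limits Tie1 (19 to 43 fragments) and adult Eng (24 fragments) most, and 1 library per stage gives no spread between animals.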
